A study of Homo sapiens with 24 samples.

Results

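The transcripts of 10 genes of the replication checkpoint and the CDC25 phosphatases were followed through the Human Cell Cycle dataset. The genes were ATR, TOPBP1, CLSPN, TIMELESS, TIPIN, CHEK1, WEE1, CDC25A, CDC25B and CDC25C. They were taken as a list of symbols and matched to the Ensembl identifiers of the expression table, where all 10 were found among 12285 genes. The rule that picks them uses names and no measured value, but the list was chosen with earlier results of these data known. Of the table, 12253 genes averaged 1 FPKM or more (fragments counted for a gene, scaled to its transcript length and to the size of the library), and the 10 genes were among these.

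The checkpoint watches DNA replication. ATR is the kinase that responds to single-stranded DNA at stalled forks, TOPBP1 activates it, CLSPN (Claspin) and the fork-bound pair of TIMELESS and TIPIN pass the signal on, and CHEK1 encodes the effector kinase CHK1. WEE1 is a kinase that restrains cyclin-dependent kinases by phosphorylating them, the CDC25 phosphatases remove those phosphates, and CHK1 acts against CDC25 proteins, so the balance between these enzymes sets when a cell may enter S phase and mitosis.

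The cells were K562, an established human erythroleukaemia line that grows in suspension. They were grown in RPMI with 10% BCS (bovine calf serum) and P/S, synchronized by centrifugal elutriation, which separates cells by their size,, and sampled every 2 h from 0 h to 46 h. Total RNA was sequenced from 1 library per time point, giving 24 libraries of what the labels describe as 1 time series, with no treatment, no untreated control and no replicates. All p-values below therefore measure the spread over time points, not over cultures. In such bulk samples a smaller share of cells in a phase and less RNA per cell cannot be told apart.

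The summed FPKM of the libraries ranged from 456791 to 591309, and the read depth behind the values is unknown. The erythroid marker list was found in full, with 15 of 15 genes in the table and a summed level of 4426 to 9522 FPKM, which matched the labelled line. Of the other marker lists, lymphoid genes had 2 of 5 members in the table (summed level 4.81 to 14.1 FPKM), fibroblast 1 of 4 (1.70 to 3.94), monocyte 1 of 2 (10.7 to 28.2) and epithelial 2 of 2 (88.6 to 149). Some libraries stand apart. The libraries of 16 h and 18 h are STRIPEs in the terms of the study, that is, time points at which many transcripts depart from both neighbours, and the study also names 32 h as a mild case. The libraries of 22 h, 28 h and 30 h share another pattern, with 7810 to 10275 FPKM of ENSG00000280102 against 28.7 to 1332 in the other libraries. Values with and without these libraries are given where a call rests on them.

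To show what lies next to the starts of these genes, RefSeq promoters (GRCh38.p14) were searched for 3 short motifs on both strands in the 250 bases upstream of each start. The motifs were the CHR element (cell cycle genes homology region, TTTGAA or TTCGAA), an E2F motif (TTTGGCGC, TTTCCCGC, TTTCGCGC or TTTGCCGC) and CCAAT. Starts were found for 9 of the 10 genes, 18 in all, and none was listed for WEE1. The CHR letters stood upstream of 2 of the 9 genes, CDC25B and CDC25C, and of 17.2% of all 27305 genes with a promoter entry. Genes with more starts have more chances of a match. Of the 18 starts, the CHR letters stood in 1 of the 4 of CDC25B, in 1 of the 4 of CDC25C and in none of the others. Of all 35116 promoters, 14.3% held them. The E2F letters stood upstream of 2 of the 9, CDC25A and TIPIN, against 3.40% of all genes (2.79% of promoters), and CCAAT upstream of 7 of the 9, against 37.0% (32.0% of promoters). The 120 bases upstream of 4 starts are shown, the only ones of the 18 with CHR or E2F letters. Because the letters picked them, they cannot show whether a motif goes with a changed course. CDC25B and CDC25C, but not CDC25A and TIPIN, were called for a different course in the 2 spans in the test given further on. CHEK1, CLSPN, TIMELESS, ATR and TOPBP1 had neither motif and were not called either. Capitals mark the motifs, with CCAAT on the opposite strand written as ATTGG. They are, 5′ to 3′ on the strand of the gene, CDC25B at chr20:3796190-3796309 (plus strand, 1 of 4 starts), CDC25C at chr5:138331805-138331924 (minus strand, 1 of 4 starts), CDC25A at chr3:48188418-48188537 (minus strand, its only start) and TIPIN at chr15:66356686-66356805 (minus strand, 1 of 2 starts).
CDC25B: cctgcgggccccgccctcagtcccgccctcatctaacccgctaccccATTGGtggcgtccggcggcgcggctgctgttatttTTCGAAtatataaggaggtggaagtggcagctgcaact
CDC25C: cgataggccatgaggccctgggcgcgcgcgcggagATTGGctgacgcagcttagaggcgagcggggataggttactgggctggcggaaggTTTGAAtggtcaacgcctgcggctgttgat
CDC25A: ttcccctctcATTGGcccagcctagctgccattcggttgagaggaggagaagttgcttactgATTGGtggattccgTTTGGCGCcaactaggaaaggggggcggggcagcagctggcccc
TIPIN: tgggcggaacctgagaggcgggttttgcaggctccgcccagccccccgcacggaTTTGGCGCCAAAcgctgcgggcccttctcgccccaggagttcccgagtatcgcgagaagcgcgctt

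The CHR letters lay at positions -30 to -25 before the start of CDC25C and -38 to -33 before that of CDC25B. In each of these windows 1 ATTGG lay further upstream, from -85 in CDC25C and from -73 in CDC25B. In TIPIN the E2F letters were read on both strands and overlapped, in a palindrome from -66 to -55. A match of letters is a description of the sequence, and no binding was measured.

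All 10 transcripts were present in every library, and none was listed at 0. The median level over the 24 libraries was highest for CHEK1 (62.1 FPKM, range 51.5 to 83.8), the effector kinase. It was lowest for CDC25C (10.4 FPKM, range 5.66 to 17.2), the phosphatase best known from mitotic entry. By mean level, which FPKM gives per length of transcript, CHEK1 (64.8 FPKM) was followed by CLSPN (55.2), WEE1 (48.6), TIMELESS (43.3), CDC25A (40.5), TOPBP1 (39.1), TIPIN (32.5), CDC25B (14.0), ATR (12.2) and CDC25C (10.2). Several neighbours in this order were not separated. TIMELESS exceeded CDC25A in 15 of 24 libraries, and CDC25B exceeded ATR in 17 of 24. The step from TIPIN to CDC25B was the clearest, since TIPIN was higher in 24 of 24 libraries by 1.19 ± 0.43 on the log2(FPKM + 1) scale (SD over 24 libraries). The 3 lowest transcripts thus included the kinase at the head of the pathway and both phosphatases of mitotic entry.

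**Figure D1:**
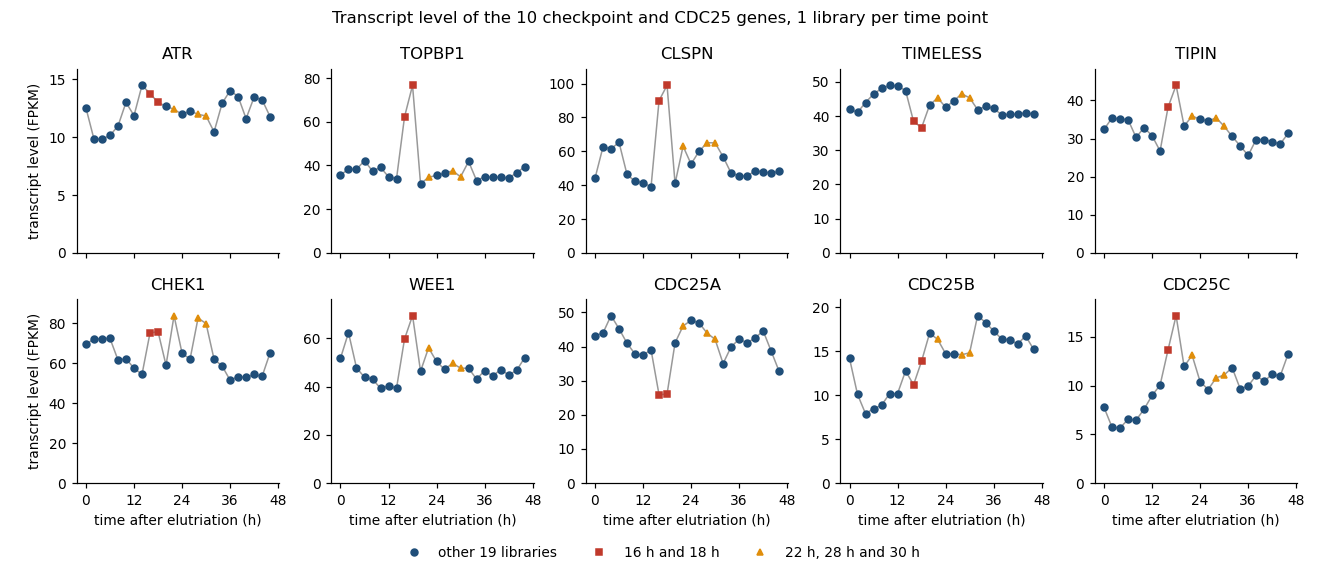
Transcript level (FPKM, y axis from 0, a scale of its own in each panel) of the 10 genes against time after elutriation (h), 1 library per point. Squares mark 16 h and 18 h, triangles 22 h, 28 h and 30 h. CLSPN and TOPBP1 stand up to 99.0 and 76.7 FPKM at 18 h, CDC25A dips to 25.9 FPKM at 16 h, and CDC25B and CDC25C climb from their lowest levels at 4 h.

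Outside 16 h and 18 h, the widest movements were those of CDC25B and CDC25C. CDC25B went from 7.90 FPKM at 4 h to 19.1 FPKM at 32 h, the mild STRIPE, with 18.3 FPKM at 34 h, and CDC25C from 5.66 FPKM at 4 h to 13.3 FPKM at 46 h. The highest level was 2.41 times the lowest for CDC25B and 2.34 times for CDC25C, against 1.21 times for TIMELESS, which moved least. For the others this ratio lay between 1.33 (TOPBP1) and 1.68 (CLSPN).

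To ask which of the genes follow a 24 h order, the JTK statistic was taken over the 24 libraries, the largest Kendall S against 12 phases of a 24 h cosine. A gene was called where its permutation p, adjusted by Benjamini-Hochberg, did not exceed 0.05. This held for 3 of the 10 genes, and for 13% of all 12285 genes. These were ATR (adjusted permutation p = 0.0144, phase 16 h), WEE1 (0.0252, phase 0 h) and CDC25C (0.0432, phase 18 h). By an unadjusted permutation p of 0.05 or below there were 7 of 10. The share of all genes at that level was not counted, so the 7 are not read as a result about these genes. ATR kept its call when any 1 library was left out (24 of 24 cases) but lost it with upper-quartile scaling (adjusted permutation p = 0.108). CDC25C kept its call in 3 of 24, with a range of 0.0172 to 0.0967. WEE1 lost it without 22 h, 28 h and 30 h (adjusted permutation p = 0.0501) and without 8 h (0.0504). Without 8 h, 1 of the 10 genes and 8.00% of all genes were called. The calls depended on the 2 STRIPE libraries. Without 16 h and 18 h there were 5 of 10, where 16.2% of all genes were called, and they were CHEK1 (adjusted permutation p = 0.00129, phase 4 h), WEE1 (0.00405, phase 0 h), TIPIN (0.0111, phase 2 h), ATR (0.0328, phase 16 h) and CLSPN (0.0349, phase 4 h). The unadjusted permutation p of CHEK1 was then the smallest that the permutations can give, 1e-05. CDC25C was no longer called (0.139). The call of CLSPN was lost when 32 h (0.0579) or 22 h, 28 h and 30 h (0.0613) were left out as well. Because this p permutes the order of time points, a slow drift can lower it too. With a straight line removed from all 24 libraries, ATR (adjusted permutation p = 0.0374) and WEE1 (0.0412) were called and CDC25C was not (0.240).

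A fit of a 24 h cosine and sine with a straight line over time, on log2(FPKM + 1) in limma, gave the size and hour of the movements. With all 24 libraries 0 of the 10 genes were called, where 11.7% of all genes were, and 5 had an unadjusted p of 0.05 or below. The share of all genes with such an unadjusted p was not counted either. ATR came nearest in limma (adjusted p = 0.0518). Without 16 h and 18 h, limma called 4 of 10, where 15.1% of all genes were called. These 4 were CLSPN, CHEK1, TIPIN and WEE1, whose fitted peaks lay between 0.5 h and 3.7 h of the 24 h span. To place those hours, 18 G1/S reference genes (cyclin E, MCM, CDC6, PCNA and related genes) had their median Z-score highest at 2 h and again at 26 h. The 16 G2/M reference genes in the table (cyclin B, PLK1, CENPE and others) had theirs highest at 22 h within the first 24 h, once 16 h and 18 h were set aside, and at 38 h within the second.

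**Figure D2:**
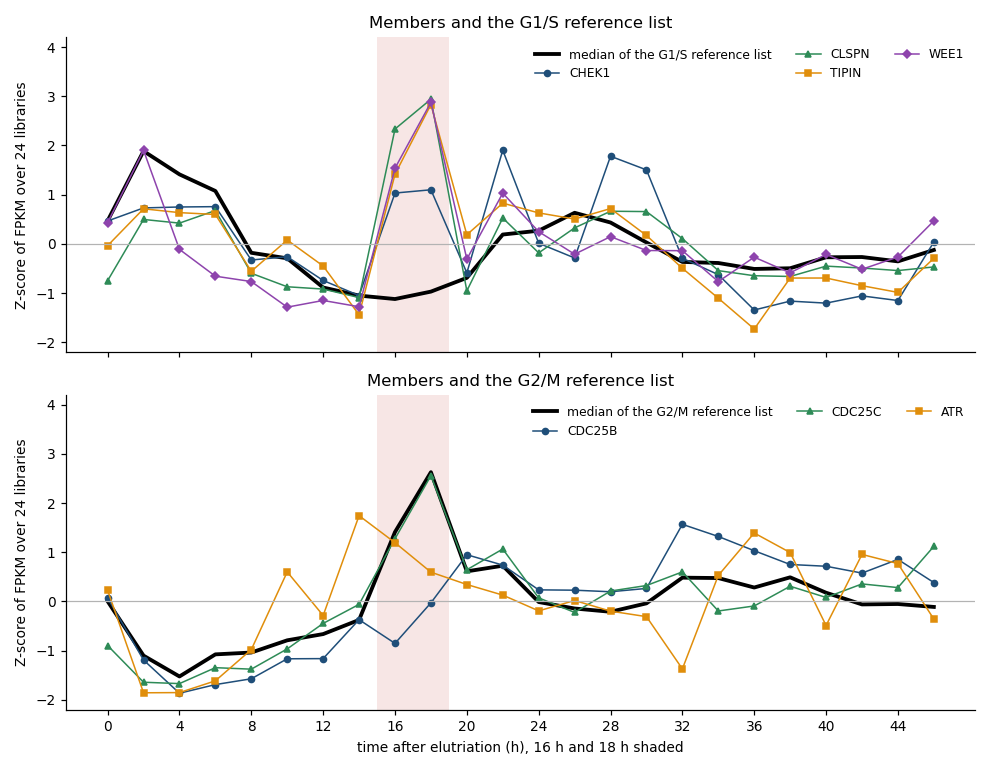
Z-score of FPKM over the 24 libraries (y axis) against time after elutriation (h), 1 library per point. The upper panel sets CHEK1, CLSPN, TIPIN and WEE1 beside the median of the G1/S list (thick line), the lower panel CDC25B, CDC25C and ATR beside the median of the G2/M list. The G1/S median peaks at 2 h and 26 h and lies below 0 in the shaded 16 h and 18 h libraries, where CHEK1, CLSPN, TIPIN and WEE1 all lie above their 14 h and 20 h values. CDC25C and the G2/M median both have their highest value at 18 h.

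The sensor kinase and its activator moved in different ways. ATR had between 9.83 FPKM and 10.1 FPKM from 2 h to 6 h, and 14.5 FPKM at 14 h. These 3 early libraries were the lowest of the first 24 h, and in the second 24 h ATR ranged from 10.5 FPKM at 32 h to 14.0 at 36 h. Its fitted peak was at 16.1 ± 1.0 h (SE, 24 libraries), with a peak-to-trough difference of 0.27 ± 0.08 in log2(FPKM + 1). TOPBP1 did not share this course. Outside 16 h and 18 h it lay between 31.6 FPKM at 20 h and 42.2 FPKM at 6 h. With all 24 libraries neither JTK (adjusted permutation p = 0.533) nor limma (adjusted p = 0.470) called it. Without 16 h and 18 h its fitted peak was at 5.1 ± 1.1 h. Again neither JTK (adjusted permutation p = 0.0866) nor limma (adjusted p = 0.123) called it. Limma did not call ATR there either (adjusted p = 0.0773).

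Of the fork proteins and the mediator, CLSPN carried the largest early peak. From 2 h to 6 h it lay between 61.5 and 65.3 FPKM, and it reached its lowest level, 38.9 FPKM, at 14 h. It stood at 65.1 FPKM at 28 h and 65.0 at 30 h, and its lowest level of the second 24 h was 45.3 FPKM at 38 h. Apart from 0 h (44.1 FPKM), 16 h, 18 h and 22 h (63.0 FPKM at 22 h), high early and lower late levels were thus seen in both spans. Without 16 h and 18 h its fitted amplitude, from the fitted mean to the peak, was 0.32 ± 0.05 in log2(FPKM + 1) with a peak at 3.7 ± 0.5 h (SE, 22 libraries; limma adjusted p = 0.00594). With all 24 libraries the amplitude was 0.12 ± 0.10 (limma adjusted p = 0.596). An antisense gene, AL354864.1, overlaps CLSPN with a mean of 2.64 FPKM, and without a stated strand setting their reads cannot be told apart.

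TIPIN followed similar hours at a smaller size, from 35.4 FPKM at 2 h to 26.7 at 14 h, and from 35.4 FPKM at 28 h to 25.6 at 36 h. The 2 courses parted at 20 h, when TIPIN was back at 33.3 FPKM and CLSPN was still low at 41.0. At 24 h TIPIN had 35.1 FPKM. Its fitted peak without 16 h and 18 h was at 1.8 ± 0.8 h, with an amplitude of 0.14 ± 0.03 (limma adjusted p = 0.0136). TIMELESS, its partner in the fork protection complex, did not share this course. It went from 41.1 FPKM at 2 h to 49.02 at 10 h and lay between 40.4 and 46.5 FPKM in the second 24 h. The ratio of TIMELESS to TIPIN therefore varied from 1.16 at 2 h to 1.78 at 14 h outside the STRIPE libraries. TIMELESS was not called by JTK (adjusted permutation p = 0.0641) or limma (adjusted p = 0.153).

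Outside 16 h, 18 h, 22 h, 28 h and 30 h, CHEK1, the effector kinase, fell from its early levels over most of each span. It had 69.5 FPKM at 0 h and 72.1 to 72.4 FPKM from 2 h to 6 h, and 54.4 FPKM at 14 h. In the second 24 h it had 65.0 FPKM at 24 h and 62.0 at 26 h. It was lowest with 51.5 FPKM at 36 h and lay at 52.9 to 54.3 FPKM from 38 h to 44 h, but had 65.2 at 46 h. Its 3 highest values were all in the libraries that stand apart, 83.8 FPKM (22 h), 82.5 (28 h) and 79.8 (30 h). Without 16 h and 18 h its fitted peak was at 3.0 ± 0.7 h with an amplitude of 0.23 ± 0.04 (limma adjusted p = 0.00941). When 22 h, 28 h and 30 h were left out as well, the peak stayed at 3.0 ± 0.6 h and the amplitude was 0.17 ± 0.03 (adjusted p = 0.0135). CHEK1 overlaps STT3A on the same strand, a gene with a mean of 192 FPKM, so the assignment of shared reads is uncertain.

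WEE1, the kinase that holds CDK1 back, was highest at 2 h outside the STRIPE libraries. Its levels were 51.7 FPKM (0 h), 62.3 (2 h) and 47.8 (4 h), followed by 39.3 to 43.8 FPKM from 6 h to 14 h. In the second 24 h it lay between 43.0 and 52.0 FPKM, a range of 1.21 times, against 1.59 times in the first without 16 h and 18 h. Its fitted peak without those libraries was at 0.5 ± 0.9 h, with an amplitude of 0.16 ± 0.03 (limma adjusted p = 0.0122).

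The 3 phosphatases, which act on the same phosphates as WEE1, were not alike. CDC25A, which is known from S phase entry as well as from mitosis, had its highest level of 49.1 FPKM at 4 h, while CDC25B and CDC25C had their lowest levels at 4 h. CDC25A reached 47.7 FPKM at 24 h in the second span and ended at 32.7 FPKM at 46 h, its lowest value outside 16 h and 18 h. It was called by neither JTK (adjusted permutation p = 0.0893) nor limma (adjusted p = 0.112), and without the STRIPE libraries its limma adjusted p was 0.341. CDC25C had 7.77 FPKM at 0 h and 5.66 at 4 h, and then rose through 9.0 at 12 h and 12.0 at 20 h to 13.1 FPKM at 22 h. CDC25B began at 14.2 FPKM at 0 h, was at its lowest with 7.90 FPKM at 4 h, and went through 10.2 at 12 h to 17.05 at 20 h. In the second span the levels stayed above these lows, with CDC25C at 9.61 FPKM or above and CDC25B at 14.6 or above. CDC25C overlaps FAM53C on the opposite strand, a gene with a mean of 23.5 FPKM, and their reads cannot be told apart without a stated strand setting.

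To ask which levels differed between the second and the first 24 h, each library was set against the one 24 h earlier, giving 12 differences per gene. CDC25B was the only one of the 10 genes called in limma. It had a mean of 11.8 ± 3.1 FPKM in the first 24 h and 16.2 ± 1.5 in the second (SD over 12 libraries). The rise was 0.46 ± 0.10 in log2(FPKM + 1) (SE of 12 differences), or 1.38-fold, and was seen in 10 of 12 pairs (adjusted p = 0.00847). Higher in the second 24 h were thus 1 of 10, where 9.44% of all genes were, and lower 0 of 10, where 5.15% of all genes were. By unadjusted p in limma, 2 of 10 had 0.05 or below, the other being CHEK1 at -0.14 ± 0.07 (adjusted p = 0.161). The share of all genes at that unadjusted level was not counted. An exact sign-flip permutation test over the 12 differences also called CDC25B (adjusted p = 0.0266) and no other of the 10 genes. Both tests take the 12 differences as independent of each other. Those of CDC25B changed with the hour, from 0.05 at 0 h through 0.81 at 4 h, 1.02 at 8 h and 0.71 at 12 h to -0.10 at 22 h. The SE and both p-values may therefore be too small, and the second test is no independent check of the first. The median difference of the 10 genes was -0.06, beside -0.01 for all genes.

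**Figure D3:**
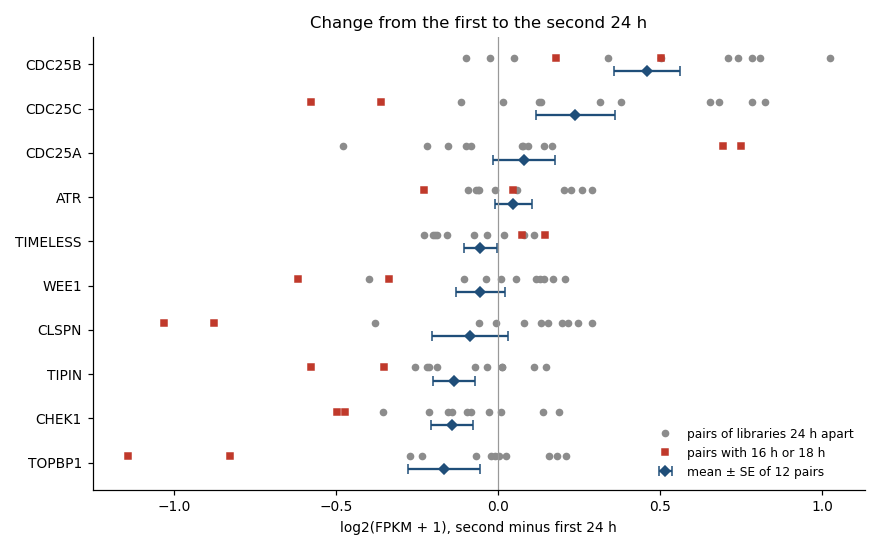
Differences in log2(FPKM + 1) between libraries 24 h apart (x axis, second minus first), for each of the 10 genes. Small points are the 12 pairs, squares the pairs with 16 h or 18 h, and diamonds with bars the mean ± SE of the 12 pairs. CDC25B lies at 0.46 ± 0.10, and the pairs with 16 h and 18 h are the lowest of TOPBP1, CLSPN, CHEK1, TIPIN and CDC25C.

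For CDC25C the pairs divided by hour. It was higher in the second 24 h in 9 of 12 pairs, by 0.24 ± 0.12 (limma adjusted p = 0.198), with the pairs of 16 h at -0.36 and of 18 h at -0.58. Without 16 h and 18 h and their partners the difference was 0.38 ± 0.10 over 10 pairs (limma adjusted p = 0.0163). Then 2 of 10 genes were higher in the second 24 h, where 12.5% of all genes were, and 0 of 10 were lower, where 7.04% were. When 22 h, 28 h and 30 h were left out as well, 7 pairs remained, with CDC25C at 0.33 ± 0.10 (adjusted p = 0.0645) and CDC25B at 0.48 ± 0.12 (adjusted p = 0.0314).

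Whether the course over 24 h itself differed between the spans was tested with interaction terms of span with the cosine and sine. CDC25C and CDC25B were called, 2 of 10, where 5.84% of all genes were. The amplitude of CDC25C was 0.61 in log2(FPKM + 1) with a peak at 17.6 h in the first 24 h, and 0.05 in the second (limma adjusted p = 0.00562). That of CDC25B was 0.41 with a peak at 19.5 h in the first, and 0.12 in the second (limma adjusted p = 0.0102). With 22 h, 28 h and 30 h left out, both had an adjusted p of 0.0457 in limma. Both calls held without 16 h and 18 h, at an adjusted p of 0.0130 for CDC25C and 0.00146 for CDC25B in limma, again 2 of 10, where 4.85% of all genes were called. The 2 phosphatases thus moved widely in the first 24 h and little in the second. This model has no straight line over time, so it cannot tell a 24 h swing from a rise that levels off. It also takes the libraries of the series as independent of each other, so its p-values may be too small. Among the other 8 genes CHEK1 (adjusted p = 0.160) and CDC25A (0.171) came nearest in limma.

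**Figure D4:**
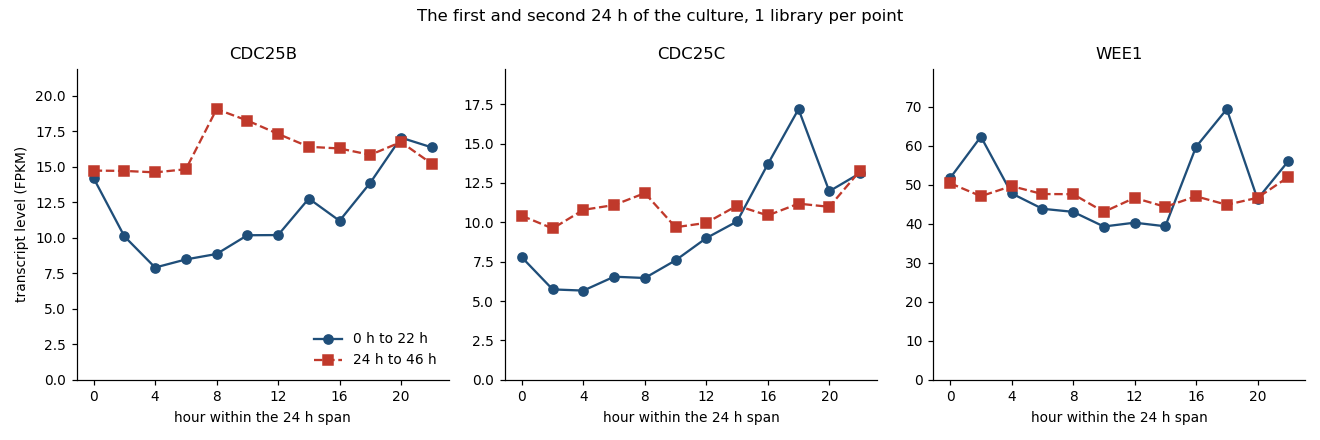
FPKM (y axis from 0) of CDC25B, CDC25C and WEE1 against the hour within each 24 h span, with circles for 0 h to 22 h and squares for 24 h to 46 h, 1 library per point. CDC25B lies higher in the second span at every hour from 0 h to 18 h, and CDC25C at every hour from 0 h to 14 h and at 22 h. WEE1 is shown for comparison and was not called.

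Of the 16 G2/M reference genes 14 were called for a different harmonic in the 2 spans and 1 by the single 24 h harmonic, where 5.84% and 11.7% of all genes were. Of the 18 G1/S reference genes 6 were called for a different harmonic and 12 by the single one.

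At 16 h and 18 h each gene was set against a line drawn from its 14 h to its 20 h value, in log2(FPKM + 1), and the mean departure is called its deviation. CLSPN and TOPBP1 stood far above their flanks. CLSPN went from 38.9 FPKM (14 h) to 89.98 (16 h) and 99.0 (18 h), and back to 41.0 (20 h), a deviation of 1.22, or 2.33-fold. TOPBP1 had 34.0, 62.3, 76.7 and 31.6 FPKM at these 4 time points, a deviation of 1.05, or 2.07-fold. These were the 2 of 10 genes at least 2-fold above, where 8.95% of all genes were, and 0 of 10 were 2-fold below, where 7.11% were. Over all genes 1097 lay above and 871 below, but 568 above and 1321 below with upper-quartile scaling. There is 1 library per time point, so no test was possible, and the same measure at 16 other consecutive pairs of time points served as the spread. In those pairs CLSPN ranged from -0.23 to 0.23 and TOPBP1 from -0.16 to 0.11.

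The other genes moved less, and not all in 1 direction. WEE1 deviated by 0.58, CDC25C by 0.45, TIPIN by 0.45 and CHEK1 by 0.41. CDC25A had 25.9 FPKM (16 h) and 26.1 (18 h) between 39.0 (14 h) and 41.1 (20 h), a deviation of -0.61 against -0.17 to 0.15 in the other pairs. TIMELESS deviated by -0.27, against -0.08 to 0.09. In all, 6 of 10 genes lay above the range of their own 16 other pairs, where 43.6% of all genes did, and 2 of 10 below it, where 28.0% did. CDC25B (-0.23) and ATR (-0.02) lay within theirs. TIMELESS and TIPIN, which act as a pair, thus lay on opposite sides of their flanks, although TIPIN did not once a GC trend was removed (-0.0003). CDC25A and CDC25C lay on opposite sides with the trend and without it.

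The median deviation was 0.43 over the 10 genes and 0.14 over all genes. Scaling moved the median of all genes to 0.02 with median centring and to -0.07 with upper-quartile scaling. With upper-quartile scaling CLSPN deviated by 0.98 and TOPBP1 by 0.81, so that 0 of 10 genes were 2-fold above, and CDC25A deviated by -0.84. The deviations went with GC content. Over 5 equal groups of genes by transcript GC content, the median deviation went from 0.54 in the group with 26.3% to 40.6% GC to -0.53 in the group above 57.7%. The part of this trend in the result was not tested further than by its removal. After LOWESS removal of the GC trend in each library, CLSPN (44.8% GC) still deviated by 0.91, TOPBP1 (42.8%) by 0.66 and CDC25A (51.7%) by -0.58. WEE1 (37.9%), TIPIN (41.3%) and CHEK1 (41.5%) were then at 0.03, -0.0003 and -0.03. ATR (40.0%), which had not deviated before, was at -0.51.

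**Figure D5:**
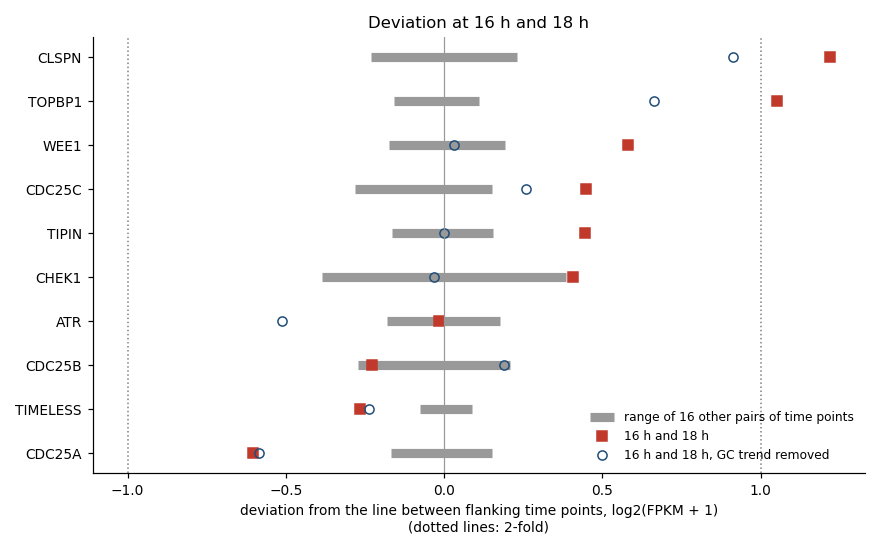
Deviation of the 16 h and 18 h libraries from a line drawn between their flanks (x axis, log2(FPKM + 1), dotted lines at 2-fold) for each gene. Squares are the deviations as deposited, open circles those with the GC trend removed, and grey bars the range over 16 other pairs of time points. CLSPN (1.22) and TOPBP1 (1.05) lie past 2-fold, CDC25A (-0.61) and TIMELESS (-0.27) below their bars.

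In the libraries of 22 h, 28 h and 30 h, CHEK1 and CLSPN were high. Against 20 h, 24 h, 26 h, 32 h and 34 h, the mean of these 3 libraries was 0.42 higher in log2(FPKM + 1) for CHEK1, above 96.9% of all genes, and 0.33 higher for CLSPN, above 94.6%. The other 8 genes lay between -0.12 (CDC25B) and 0.12 (WEE1). What sets these libraries apart was not tested. For CLSPN the values at 28 h and 30 h were close to those at 2 h to 6 h, and 60.0 FPKM was already reached at 26 h, a library outside the set. For CHEK1 the level at 26 h was 62.0 FPKM.

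Over the 22 libraries other than 16 h and 18 h, the genes fell into 2 courses and some that followed neither. These correlations of log2(FPKM + 1) are descriptions over time points of 1 series, which share libraries and drift. CDC25B and CDC25C went together (Pearson r = 0.85), as did CHEK1 and TIPIN (0.82), CHEK1 and CLSPN (0.76) and CLSPN and TIPIN (0.67). ATR ran opposite to the early genes, with -0.64 against CLSPN, -0.61 against TIPIN and -0.53 against CHEK1, and with 0.55 against each of CDC25B and CDC25C. With all 24 libraries CLSPN and TOPBP1 had an r of 0.79, against 0.46 without 16 h and 18 h. CDC25A and TOPBP1 went from -0.78 with all 24 to -0.17 without these 2, so the larger values rest on the STRIPE libraries.

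The genes outside the list whose course was most like that of each member were named over the same 22 libraries, among 8958 genes that averaged 5 FPKM or more. For CLSPN they were DONSON (r = 0.96) and MCM10 (0.94), both replication factors. For CDC25C they were NDC80 (0.94), a kinetochore subunit, and the helicase PIF1 (0.93). CDC25B was nearest to STING1 (0.96) and PSRC1 (0.95), and WEE1 to DTL (0.90), a substrate receptor of a ubiquitin ligase active in S phase, and ARHGEF12 (0.88). TIMELESS was nearest to DPH2 (0.92) and DHX37 (0.91), CHEK1 to CIRBP (0.88) and RNF121 (0.88), and TOPBP1 to USP30 (0.88) and KAT7 (0.87). The values were lower for CDC25A, with CIDECP1 (0.86) and RRAGC (0.82), for ATR, with HSD3B7 (0.82) and FKBP4 (0.81), and for TIPIN, with PPP2CA (0.82) and RNF121 (0.79).

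The transcripts of WEE1 and the phosphatases were compared as ratios of FPKM in the same library, outside 16 h and 18 h. These ratios do not give the balance of the enzymes, since neither protein nor activity was measured. For each WEE1 transcript, CDC25B varied from 0.162 at 2 h to 0.424 at 34 h, and its median was 0.256 in the first 24 h and 0.350 in the second. CDC25C over WEE1 varied from 0.0920 at 2 h to 0.258 at 20 h. CDC25A over WEE1 had medians of 0.941 and 0.904 in the 2 spans, and CDC25A was the most abundant of the 3 phosphatase transcripts in every library. The ratio of CHEK1 to CDC25C fell from 12.8 at 4 h to 4.82 at 38 h. CDC25C was thus lowest against CHEK1 in the early hours.

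Other genes of the pathway were counted in lists, with deviations at 16 h and 18 h as deposited, the GC trend not removed. Their counts are to be read against the shares of all genes, 13% by JTK, 11.7% by the limma harmonic, 5.84% for a different harmonic, 9.44% higher and 5.15% lower in the second 24 h, and 8.95% above and 7.11% below 2-fold at 16 h and 18 h. Of 14 sensor genes, the clamp, its loader, ATR partners such as ATRIP and ETAA1, and the RPA complex that coats single-stranded DNA, 4 were called by JTK. They were RFC2 (adjusted permutation p = 0.0118), RPA2 (0.0359), RAD9A (0.0392) and ETAA1 (0.0392), with fitted peaks at 3.1 h, 5.4 h, 4.4 h and 19.2 h. RFC2 went from 63.5 FPKM at 14 h to 101 FPKM at 30 h. In the test of the second against the first 24 h 0 of 14 were called in limma, and 1 of 14, RHNO1, had a different harmonic (limma adjusted p = 0.0181), chosen here after its value was seen.

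Of 7 mediator genes, which bring repair and checkpoint proteins to damaged DNA, 0 were called by JTK and 0 by the limma harmonic, and WDHD1 came nearest (adjusted permutation p = 0.0577). MDC1 was the 1 of 7 lower in the second 24 h, by -0.43 ± 0.12 (limma adjusted p = 0.0333). MDC1 was also 1 of the 3 mediators at least 2-fold above their flanks at 16 h and 18 h (8.95% of all genes), at 1.34, with RAD50 (1.14) and BRCA1 (1.16, named after its value was seen). Of the related kinases ATM, PRKDC and CHEK2, CHEK2 was called by JTK (adjusted permutation p = 0.0359), with a deviation of 1.31 at 16 h and 18 h. CHEK2 had 21.7 FPKM at 4 h and 55.6 FPKM at 32 h, the mild STRIPE, as its extremes outside 16 h and 18 h.

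The genes that turn over or dephosphorylate checkpoint proteins gave 1 of 8 called by JTK (13% of all genes), the phosphatase subunit PPP1CA (adjusted permutation p = 0.00508). Of the 6 YWHA genes, whose proteins hold phosphorylated CDC25 away from its targets, JTK called 0, and limma called YWHAB for a harmonic (adjusted p = 0.0349). Of the 12 genes of the CDK switch, 5 were called by JTK, 3 by the limma harmonic and 7 for a different harmonic in the 2 spans, where 13%, 11.7% and 5.84% of all genes were. PKMYT1, which phosphorylates CDK1 beside WEE1, was among the 5 (adjusted permutation p = 0.00508). It was highest at 6 h with 133 FPKM, when WEE1 had 43.8 FPKM, and at 16 h and 18 h it deviated by -1.07 where WEE1 deviated by 0.58. That contrast was not corrected for GC content, and WEE1 was at 0.03 with the GC trend removed. The others called by JTK were CCNE2 (0.00508), CDK1 (0.0359), CCNB2 (0.0479) and MASTL (0.0479, named after its value was seen).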

How the data were processed

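RNA was sequenced from 24 K562 samples, 1 per time point, assigned from the sample labels. The authors deposited FPKM per gene after STAR alignment and Cufflinks quantification. The submitters' processing notes name STAR, Cufflinks, Cuffnorm and the build GRCh37, without versions, and whether strand was used in counting is not given in the sources used here. The FPKM values were used as deposited. The authors also deposited a cleaned score per gene and time point, which was identical to Z-scores followed by quantile normalization of the FPKM table (Pearson r = 1). It was used as an alternative only. No read counts were recovered, so depth and counting error are unknown. Each gene in the table reached 1 FPKM in at least 12 libraries.

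The 10 genes, the pathway lists and the tests were chosen with earlier results of these data known. Named were the 10 genes, up to 4 genes per list by JTK statistic and the 2 most alike genes per member. Symbols came from a table of gene names.

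JTK used 100000 orderings of the time points and 12 phases, with Benjamini-Hochberg adjustment over 12285 genes. limma 3.58.1 (R 4.3.3) was run on log2(FPKM + 1) of the 12253 genes that averaged 1 FPKM or more, which understates changes of low genes. The harmonic had a straight line as covariate, the comparison of the spans used 12 differences, and the interaction had span as a main effect. Both methods were tested on simulated data. The GC trend was removed by LOWESS (span 0.3, statsmodels 0.14.6), with the GC content of the longest GENCODE 29 transcript, known for 99.1% of genes. GENCODE 29 and RefSeq are on GRCh38, so no gene coordinates of the files are given. Alternatives were other scalings, filters, pseudocounts, periods, lags and left-out libraries.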

Additional observations from a re-analysis of the deposited data

Results flagged for a closer look

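The course over 24 h differed between the first and the second span, by a test of the difference itself, for CDC25C (limma adjusted p = 0.00562) and CDC25B (limma adjusted p = 0.0102). In this test 5.84% of all genes were called. Its model has no straight line over time, so it cannot tell a 24 h swing from a rise that levels off. It takes the libraries as independent, so its p-values may be too small, which leaving out single libraries does not address. Leaving out each library in turn gave an adjusted p of 0.00250 to 0.0168 for CDC25C and 0.00593 to 0.0267 for CDC25B, with both called in 24 of 24 cases. Without 22 h, 28 h and 30 h, both had 0.0457. None of the other 8 genes was called in this test with all libraries, and with 1 library per time point no check of a library against replicates could be made.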

How the results depend on the processing

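Depth is unknown, and the spread is that over time points of 1 series. Leaving out 22 h, 28 h and 30 h was chosen after seeing the data, as was leaving out these with 16 h and 18 h. Where no reason is given, the cause was not tested. The 3 genes called by JTK became 5 without 16 h and 18 h, 5 without all 5 libraries, 5 in the cleaned table, 5 after quantile normalization, and 0 at periods of 20 h and 28 h. Leaving out each library in turn gave 1 to 4 (7.63% to 14.7%). The single call, ATR, came without 8 h (8.00%), where WEE1 had an adjusted permutation p of 0.0504. ATR was called in 24 of 24 such cases, WEE1 in 23 and CDC25C in 3. The limma harmonic, with 0 calls, gave 4 without 16 h and 18 h, 4 without all 5 libraries, 3 with upper-quartile scaling, 2 without the straight line, and 1 each at 28 h, with median centring, with a pseudocount of 0.1 and for genes of at least 10 FPKM. Leaving out each library gave 0 to 1 (4.87% to 14.7%). The change of span, with 1 call (14.6%), gave 2 without 16 h and 18 h (19.6%) and 1 to 1 when each pair was left out (9.96% to 16.5%). The difference in harmonic, with 2 calls (5.84%), gave 2 to 4. The 4 came without 20 h (21.4%), when CHEK1 (limma adjusted p = 0.0411) and WEE1 (0.0449) were added. The 2 genes past 2-fold above at 16 h and 18 h became 1 with median centring, 0 with upper-quartile scaling and 0 with the GC trend removed. At 1.5-fold 1 gene, CDC25A, lay below in place of 0. Counts over all genes moved more. JTK called 1602, but 270 at 20 h, 437 at 28 h, 2438 without all 5 libraries, 937 without 6 h and 983 without 8 h. The harmonic called 1436, but 155 at 20 h, 390 at 28 h, and 912, 907, 873, 597 and 703 without 6 h, 8 h, 10 h, 16 h and 18 h. The change of span called 1788, but 763 without 22 h, 28 h and 30 h and 773 for genes of at least 10 FPKM, where fewer were tested. The difference in harmonic called 715, but 69 without 22 h, 28 h and 30 h, 244 without all 5, and 214 (without 16 h) to 2618 (without 20 h) when each library was left out. Above and below 2-fold there were 1097 and 871, but 2933 and 2060 at 1.5-fold, 794 and 1129 with median centring, 568 and 1321 with upper-quartile scaling, and 1308 below with a pseudocount of 0.1. No paired analysis was possible because each time point has 1 library, so that replicate numbers cannot serve as a block. The 12 differences above match time points 24 h apart, not replicates.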
